A study of Mus musculus with 15 samples.

Results

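The genes described here are 10 genes of axon growth: Gap43, doublecortin (Dcx), the 5 collapsin response mediator protein (CRMP) genes Crmp1, Dpysl2, Dpysl3, Dpysl4 and Dpysl5, Stmn2, Map1b and Mapt. They were matched by gene symbol, and all 10 were found among the 18536 genes of the deposited table. The study measured RNA of the mouse auditory nerve at postnatal days 3, 7, 14 and 21 (P3, P7, P14 and P21) and in adults, with 3 libraries per age. Each library came from the nerve tissue of both cochleae of 1 mouse, sequenced as bulk RNA. The labels state no strain, sex, litter, treatment or allele. The adults carry a control prefix in their names and no age in days, so they are called adult here. P3 and P7 fall before the onset of hearing in mice, and P14 and later ages after it.

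A growth cone is the motile tip of an extending axon. Gap43 encodes a membrane-attached phosphoprotein that is abundant there, and CRMP proteins bind tubulin and carry the signal of semaphorin 3A, a repulsive guidance cue, to the microtubules of the growth cone. Doublecortin, the MAP1B protein and tau (Mapt) bind along microtubules, and stathmin-2 (Stmn2) binds tubulin dimers. In the auditory nerve, the axons of spiral ganglion neurons have reached their targets around birth and are myelinated and refined during the postnatal weeks.

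Promoter sequence from the RefSeq table (GRCm38.p6, the assembly of mm10) was matched by symbol for 4 of the 10 genes. It is shown for all 4, a set given by the sequences available and not by the course of the genes. Of the 4, Dcx, Crmp1 and Dpysl5 fell at P7 and rose from P21 to the adult. Mapt, which had no promoter sequence there, did so too. Map1b rose most of all 10 from P3 to the adult. Each line gives the 250 bases before the annotated start, 5′ to 3′ on the strand of the gene. Capitals mark matches on either strand to CANNTG, the E-box of basic helix-loop-helix factors, to GGGCGG, the box bound by Sp1 and its relatives, or to TATAAA, the core element found upstream of some start sites. The windows lie at chrX:143933220-143933469 (Dcx, minus strand), chr5:37241808-37242057 (Crmp1, plus), chr5:30711314-30711563 (Dpysl5, plus) and chr13:99516603-99516852 (Map1b, minus).
Dcx: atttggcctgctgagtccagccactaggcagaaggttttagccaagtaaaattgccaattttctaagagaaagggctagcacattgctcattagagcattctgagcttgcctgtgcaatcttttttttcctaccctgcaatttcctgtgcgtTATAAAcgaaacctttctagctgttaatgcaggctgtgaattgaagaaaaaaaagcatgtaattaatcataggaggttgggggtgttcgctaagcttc
Crmp1: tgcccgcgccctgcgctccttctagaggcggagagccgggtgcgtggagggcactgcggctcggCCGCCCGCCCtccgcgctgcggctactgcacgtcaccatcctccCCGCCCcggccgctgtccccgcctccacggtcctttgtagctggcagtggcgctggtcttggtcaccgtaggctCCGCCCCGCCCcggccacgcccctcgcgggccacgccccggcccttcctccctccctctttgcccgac
Dpysl5: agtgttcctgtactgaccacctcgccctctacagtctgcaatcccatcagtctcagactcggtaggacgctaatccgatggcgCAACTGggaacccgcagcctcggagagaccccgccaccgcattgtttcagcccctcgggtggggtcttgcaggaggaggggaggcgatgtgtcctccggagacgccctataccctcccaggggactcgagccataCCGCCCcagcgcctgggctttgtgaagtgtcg
Map1b: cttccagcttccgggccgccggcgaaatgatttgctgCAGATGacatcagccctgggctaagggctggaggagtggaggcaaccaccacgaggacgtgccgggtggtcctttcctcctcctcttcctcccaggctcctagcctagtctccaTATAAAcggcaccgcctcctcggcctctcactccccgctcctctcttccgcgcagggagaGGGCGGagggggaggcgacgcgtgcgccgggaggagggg

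The 4 windows differed in base composition. GC content was 41.6% for Dcx, 75.6% for Crmp1, 62.8% for Dpysl5 and 66.4% for Map1b, against a mean of 53.2% over the 32851 promoter windows of the table. Dcx held 1 match to TATAAA and none to the other motifs, Crmp1 held 5 matches to GGGCGG, some of which overlap each other, Dpysl5 held 1 match each to CANNTG and GGGCGG, and Map1b held 1 match to each of the 3. The motif TGACGTCA was searched too and had no match in these 4 windows. Among all promoter windows of the same length, 66.22% held CANNTG, 32.74% GGGCGG, 12.37% TATAAA and 1.55% TGACGTCA. In bases from the annotated start, the match to TATAAA began at -98 in Dcx and at -99 in Map1b. All of these are matches of letters and show no binding or function.

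The 5 CRMP genes encode related proteins, so their coding sequences were compared to see how far reads could be shared between them. Taken from the longest reading frame of the GENCODE M21 transcripts, the coding sequences ran from 1695 bases (Dpysl5) to 2061 bases (Crmp1). Identity between pairs ran from 57.4% (Dpysl4 and Dpysl5) to 73.2% (Crmp1 and Dpysl2), and the longest run of identical bases in any pair was 29. For Dpysl3, which is left out of the stretch below, the longest run shared with another of the 5 genes was 22 bases. How many reads were shared was not measured. The most alike stretch among Crmp1, Dpysl2, Dpysl4 and Dpysl5 is shown here. It has 60 bases, of which 41 are identical in all 4 genes, and capitals mark the 19 positions that differ.
Crmp1: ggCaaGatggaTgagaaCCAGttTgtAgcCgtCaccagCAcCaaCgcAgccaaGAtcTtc
Dpysl2: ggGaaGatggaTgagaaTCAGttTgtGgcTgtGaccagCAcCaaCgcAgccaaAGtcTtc
Dpysl4: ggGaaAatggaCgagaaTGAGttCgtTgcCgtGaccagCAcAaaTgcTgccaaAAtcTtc
Dpysl5: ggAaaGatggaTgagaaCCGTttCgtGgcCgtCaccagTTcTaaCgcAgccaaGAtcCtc

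Values are normalized read counts, that is, read counts that the authors scaled between libraries by a size factor. The libraries held between 35250155 and 42258738 reads, so a normalized count of 2.53 to 3.65, depending on the library, corresponds to 3 reads, and all 10 genes lay far above that in every library. Some libraries stood apart in ways that touch the results. Against each gene's own mean, genes with long transcripts (from 5152 bases) had a median log2 deviation of -0.42 in P21 replicate 2 and of 0.22 to 0.27 in the 3 adult libraries, while genes with short transcripts (up to 1892 bases) deviated the other way. In P3 replicate 2, 9 of the 10 genes had their lowest value of that age, and so did the summed general neuron markers. The labels give no sex. In 4 libraries (P14 replicate 1, P21 replicate 1, P21 replicate 2 and adult replicate 3) there were almost no reads of the Y-linked gene Eif2s3y. They held at most 26.7 normalized counts of it, against at least 1577 in the other 11. The same 4 held 24201 to 44422 normalized counts of the X-linked gene Xist, and the other 11 at most 1107. None of the 4 is from P3 or P7, so this difference is unevenly spread over the ages. The differences between ages, the counts of called genes and the ratios of 2 genes were also computed without each library, without those 4, and with the length trend removed. Leaving out the 4 leaves 1 library at P21 and 2 each at P14 and in adults, so the lone P21 library is assumed to vary like those of the other ages. In bulk tissue, fewer cells of a type and less RNA per cell cannot be told apart, which holds for every difference given here.

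The genes lie apart in the mm10 genome, and each span given runs over the whole gene with its introns. It has the start of the deposited table and ends just before the stop given there (for Gap43, 42340651 for a stop of 42340652). Gap43 lies at chr16:42248561-42340651 on the minus strand, and the X-linked Dcx at chrX:143855842-143933219 on the minus strand. The CRMP genes lie at chr5:37242058-37292163 (Crmp1, plus strand), chr14:66802864-66868600 (Dpysl2, minus), chr18:43320979-43438286 (Dpysl3, minus), chr7:139086001-139101791 (Dpysl4, plus) and chr5:30711564-30799369 (Dpysl5, plus). Stmn2 lies at chr3:8509527-8561604 on the plus strand, Map1b at chr13:99421464-99516602 on the minus strand and Mapt at chr11:104231436-104332089 on the plus strand.

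**Figure D1:**
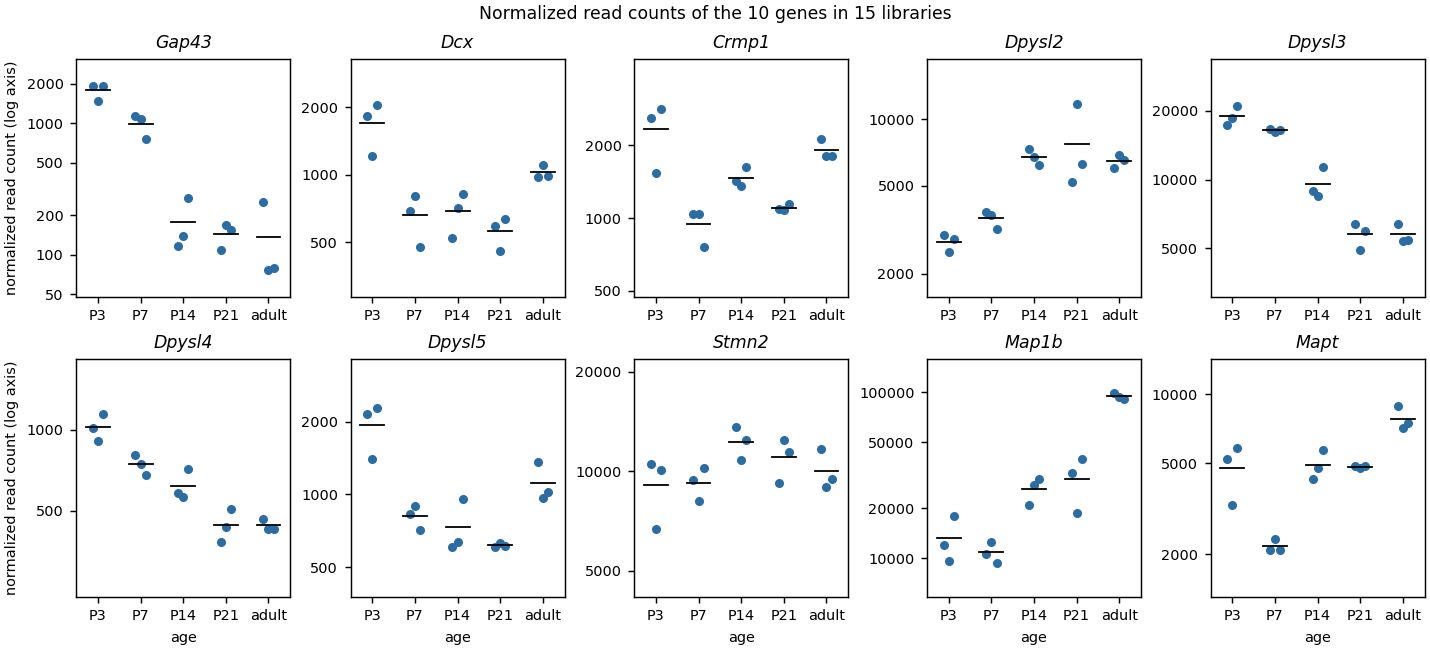
Normalized read counts (log axis) of the 10 genes in each library against age, with 1 point per library and a horizontal line at the mean of each age (n = 3). Gap43, Dpysl3 and Dpysl4 are lower in adults than at P3, Dcx, Crmp1, Dpysl5 and Mapt are lower at P7 than at P3 and higher in adults than at P21, Dpysl2 and Map1b are higher in adults than at P3, and Stmn2 stays between 6669 and 13636.5.

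Gap43, whose protein lines the inner membrane of growth cones, had the largest decline of the 10 genes between P3 and the adult. In replicate order, its 3 P3 libraries held 1934, 1489.9 and 1930.4 normalized counts and its P7 libraries 1141, 1086 and 763. At P14 the values were 117, 139 and 273, at P21 109, 168 and 154, and in adults 252, 76.6 and 79.0. The libraries of P3 and P7 did not overlap with those of any later age, and P3 lay wholly above P7. The steep step was from P7 to P14, with 5.95-fold lower counts at P14 (log2 difference -2.57 ± 0.41 (SE), limma adjusted p = 0.000189). The lower level at P7 than at P3 (log2 difference -0.85 ± 0.41) did not pass the test (limma adjusted p = 0.138). It did pass with only the libraries of both ages in the fit (adjusted p = 0.00894), with limma-voom (0.00971) and without adult replicate 1 (0.0406), and over its 27 alternatives the adjusted p ran from 0.00894 to 0.325. Adults were 15.3-fold below P3 (log2 difference -3.93 ± 0.41, limma adjusted p = 1.49e-06). Adult replicate 1 was about as high as P14 replicate 3, and without it the adult level fell below that of P21 (log2 difference -0.85, limma adjusted p = 0.0459, range over 28 alternatives 0.0459 to 1.0), which was not called with all libraries (adjusted p = 0.578).

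Doublecortin, a microtubule-binding protein of migrating and young neurons, fell early and rose late. The P3 libraries held 1831, 1220.4 and 2051 normalized counts of Dcx and the P7 libraries 694, 809 and 477. Values were 526, 711 and 825 at P14, 593, 459 and 638 at P21, and 982, 1111 and 993 in adults. Every P3 library lay above every library of the other ages, and every adult library lay above those of P7, P14 and P21. Dcx fell 2.57-fold from P3 to P7 (log2 difference -1.36 ± 0.23, limma adjusted p = 0.000982) and then showed no called step until it rose 1.84-fold from P21 to the adult (log2 difference 0.88 ± 0.23, limma adjusted p = 0.00722). The longest annotated Dcx transcript has 9074 bases, and with the length trend removed the late rise was 0.33 on the log2 scale and no longer called (limma adjusted p = 0.171). It was also not called without the 4 libraries low in Eif2s3y (log2 difference 0.71, adjusted p = 0.155, range over 28 alternatives 0.00085 to 0.171). The adult level was 1.62-fold below that of P3 (log2 difference -0.69 ± 0.23, limma adjusted p = 0.0159). That call was lost without P3 replicate 1 (adjusted p = 0.054) or P3 replicate 3 (0.0735), with a range of 0.000278 to 0.0735 over 28 alternatives.

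Crmp1 and Dpysl5 (CRMP5) are the CRMP genes best known from young, growing neurons, and like Dcx both fell from P3 to P7 and rose from P21 to the adult. Crmp1 also rose from P7 to P14, where Dcx and Dpysl5 had no called step. In replicate order Crmp1 had 2598, 1536 and 2832 normalized counts at P3 and 1039, 1041 and 757 at P7. It had 1424, 1359 and 1622 at P14, 1086, 1082 and 1144 at P21, and 2127, 1806 and 1795 in adults. P7 lay wholly below every other age, and the adults lay wholly above P21 and inside the range of P3. Crmp1 fell 2.40-fold from P3 to P7 (log2 difference -1.26 ± 0.19, limma adjusted p = 0.000487) and rose 1.72-fold from P21 to the adult (0.79 ± 0.19, limma adjusted p = 0.00494). Between P7 and P14 it rose 1.56-fold (log2 difference 0.65 ± 0.19, limma adjusted p = 0.0130), a call that was lost without P7 replicate 6 (0.49, adjusted p = 0.0646) and without the 4 libraries low in Eif2s3y (0.67, adjusted p = 0.0504), with a range of 0.000918 to 0.0646 over 27 alternatives. Adult and P3 levels differed by -0.24 ± 0.19 on the log2 scale, which did not pass the test (limma adjusted p = 0.281). Without P3 replicate 2 that difference was -0.51 and called (limma adjusted p = 0.00569, range over 28 alternatives 0.00569 to 0.765).

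Dpysl5 held 2152, 1398 and 2276 normalized counts at P3 and 833, 895 and 715 at P7. Its values were 603, 633 and 954 at P14, 606, 628 and 609.5 at P21, and 1364, 968 and 1019.6 in adults. As for Dcx, the P3 libraries were above those of all later ages, and the adult libraries were above those of P7, P14 and P21. Dpysl5 fell 2.34-fold from P3 to P7 (log2 difference -1.23 ± 0.20, limma adjusted p = 0.000885) and rose 1.80-fold from P21 to the adult (0.84 ± 0.20, limma adjusted p = 0.00471). Adults stayed 1.72-fold below P3 (log2 difference -0.78 ± 0.20, limma adjusted p = 0.00377). Without the 4 libraries low in Eif2s3y, the rises from P21 to the adult were not called for Crmp1 (log2 difference 0.78, adjusted p = 0.123) and Dpysl5 (0.91, adjusted p = 0.078), about as large as with all libraries, with ranges over 28 alternatives of 0.000283 to 0.123 and 0.000277 to 0.078. With the length trend removed both were called, at 0.83 for Crmp1 and 0.61 for Dpysl5 on the log2 scale. Over the 15 libraries, the log2 values of Dpysl5 and Dcx had a Pearson correlation of 0.94 and those of Crmp1 and Dcx of 0.872, as a description of libraries that share their ages.

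Dpysl3 and Dpysl4 declined instead in steps that continued after P7. Dpysl3 encodes CRMP4, which also bundles actin. It had 17336, 18622 and 21044 normalized counts at P3 and 16638, 16127 and 16538 at P7, then 8950.0, 8492 and 11316 at P14. The later libraries held 6386, 4912 and 5968 at P21 and 6408, 5402 and 5448 in adults. Each age up to P21 lay wholly below the one before it, while P21 and the adults overlapped. The difference between P3 and P7 was -0.20 ± 0.12 on the log2 scale and not called (limma adjusted p = 0.229), except after quantile normalization (-0.36, adjusted p = 0.0282, range over 27 alternatives 0.0282 to 0.543). Dpysl3 fell 1.73-fold from P7 to P14 (log2 difference -0.79 ± 0.12, limma adjusted p = 0.000145) and 1.66-fold from P14 to P21 (-0.73 ± 0.12, limma adjusted p = 0.0034). The step to P21 was lost with only the libraries of both ages in the fit (log2 difference -0.73, adjusted p = 0.0945) and without the 4 libraries low in Eif2s3y (-0.72, adjusted p = 0.0521), with a range of 1.11e-06 to 0.0945 over 28 alternatives. Adults were 3.30-fold below P3 (log2 difference -1.72 ± 0.12, limma adjusted p = 3.34e-08).

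Dpysl4 (CRMP3) was lower throughout, with 1016, 906 and 1144 normalized counts at P3 and 807, 748 and 679 at P7. It had 585, 561 and 716 at P14, 385, 437 and 509 at P21, and 467, 429 and 430.2 in adults. P3 lay above all later libraries and P14 above those of P21 and the adult, while P7 and P14 overlapped through P14 replicate 3. Adults were 2.30-fold below P3 (log2 difference -1.20 ± 0.13, limma adjusted p = 1.62e-06). The single steps were smaller. The fall of 1.37-fold from P3 to P7 (limma adjusted p = 0.0179) was lost without P3 replicate 3 (adjusted p = 0.0843), P7 replicate 5 (0.0506) or P7 replicate 6 (0.0703), with a range of 0.00382 to 0.0843 over 27 alternatives. The fall of 1.40-fold from P14 to P21 (limma adjusted p = 0.0309) was lost without P14 replicate 3 (0.143), without P21 replicate 1 (0.0873), without the 4 libraries low in Eif2s3y (0.327) and with only both ages in the fit (0.201), with a range of 0.00692 to 0.327 over 28 alternatives. From P7 to P14 the difference of -0.27 ± 0.13 on the log2 scale was not called (limma adjusted p = 0.101), except without P14 replicate 3 (-0.37, adjusted p = 0.0347, range over 27 alternatives 0.0347 to 0.290).

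Dpysl2 (CRMP2), which carries tubulin dimers to growing microtubule ends and is the family member best known from mature nervous tissue, went the other way. Its P3 libraries held 2996, 2519 and 2876 normalized counts and its P7 libraries 3795, 3697 and 3197. At P14 it had 7368, 6746 and 6201, at P21 5220.1, 11697 and 6243, and in adults 6027, 6904 and 6556. All libraries of P14 and later lay above all of P3 and P7, and P21 replicate 2 stood far above the other 14. The rise from P7 to P14 was 1.90-fold (log2 difference 0.93 ± 0.21, limma adjusted p = 0.00297), and adults were 2.33-fold above P3 (1.22 ± 0.21, limma adjusted p = 0.000194). P7 lay wholly above P3 (log2 difference 0.35 ± 0.21), which was not called (limma adjusted p = 0.242). That difference was called without P21 replicate 2 (adjusted p = 0.0149), and also without the 4 libraries low in Eif2s3y (0.0164) and with only both ages in the fit (0.0211), with a range of 0.0149 to 0.454 over 27 alternatives.

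**Figure D2:**
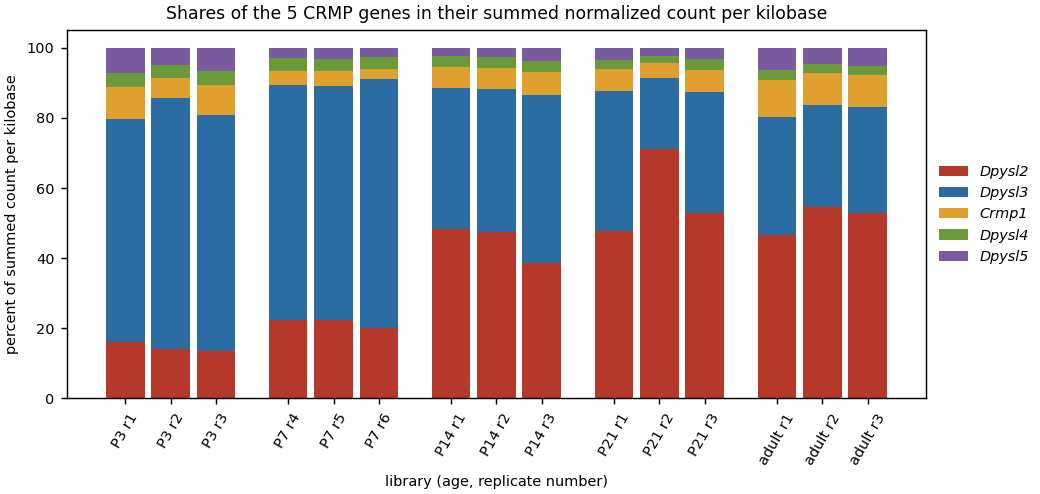
Share of each CRMP gene (percent) in the summed normalized count per kilobase of exon of the 5 genes, by library and age. Dpysl3 holds the largest share at P3 and P7 (means of 67.6% and 68.3%), and Dpysl2 holds the largest in adults (51.3%).

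These opposite courses changed which CRMP gene was most abundant. Per kilobase of exon (the union of all annotated exons), Dpysl3 made up 67.6% ± 3.95 (SD, n = 3) of the summed count of the 5 genes at P3 and 31.0% ± 2.46 in adults. Dpysl2 made up 14.6% ± 1.36 at P3 and 51.3% ± 4.23 in adults. At P14 their shares were near each other, 43.0% ± 4.36 for Dpysl3 and 44.8% ± 5.46 for Dpysl2. At P21 the spread was widest, because P21 replicate 2 had shares of 71.0% for Dpysl2 and 20.4% for Dpysl3. Crmp1 went from 7.67% ± 1.86 at P3 to 3.67% ± 0.547 at P7 and 9.65% ± 0.758 in adults, and Dpysl5 from 6.15% ± 1.18 to 3.03% ± 0.288 at P7 and 5.39% ± 0.934 in adults. With the longest transcript as the length, the share of Crmp1 was 13.8% at P3 and 18.2% in adults. Dpysl4 was the smallest share at P3, 4.01% ± 0.141, and in adults, 2.63% ± 0.084.

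Stmn2, the neuronal stathmin of the growth cone, was the exception of the 10 genes. It had 10486, 6669 and 10059 normalized counts at P3, 9404, 8095 and 10193 at P7, and 13636.5, 10768 and 12416 at P14. At P21 it had 9199, 12414 and 11412, and in adults 11624, 8976 and 9478. P14 lay wholly above P7, and otherwise neighbouring ages overlapped. Over all 5 ages Stmn2 was the 1 gene of the 10 that was not called (limma moderated F test, adjusted p = 0.121), while 85.4% of the 16723 genes tested were called. The rise of 1.33-fold from P7 to P14 was not called (limma adjusted p = 0.0666), but was with DESeq2 (adjusted p = 0.0432), with only both ages in the fit (0.0174) and without P3 replicate 2 (0.0256), with a range of 0.0174 to 0.215 over 27 alternatives. The adult level differed from that of P3 by 0.16 ± 0.17 on the log2 scale (limma adjusted p = 0.415).

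Map1b encodes a large protein that binds microtubules and actin and is a classic marker of growing axons, and here it rose with age. It had 11972.5, 9611 and 18079 normalized counts at P3 and 10564.5, 12596.5 and 9399 at P7. It rose to 20791, 27482 and 29798 at P14, had 32449.7, 18714 and 39369 at P21, and reached 98681, 92770.4 and 91015 in adults. The adult libraries lay far above all others, P14 lay wholly above P3 and P7, and P21 replicate 2 was the lowest library after P7. Map1b rose 2.39-fold from P7 to P14 (log2 difference 1.26 ± 0.26, limma adjusted p = 0.0014) and 3.27-fold from P21 to the adult (1.71 ± 0.26, limma adjusted p = 0.000367). Adults were 7.37-fold above P3 (log2 difference 2.88 ± 0.26, limma adjusted p = 3.62e-07). Its longest transcript has 11808 bases, and with the length trend removed the rise from P21 to the adult was 1.01 and that from P3 to the adult 2.45 on the log2 scale, both called.

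Mapt encodes tau, which binds along the microtubules of axons. The P3 libraries held 5226, 3275 and 5807 normalized counts and the P7 libraries 2098, 2341 and 2094. Values were 4262, 4779 and 5711 at P14, 4855, 4738 and 4863 at P21, and 8876, 7078 and 7481 in adults. P7 lay below every other library and the adults above every other. Mapt fell 2.13-fold from P3 to P7 (log2 difference -1.09 ± 0.17, limma adjusted p = 0.00068), rose 2.24-fold from P7 to P14 (1.17 ± 0.17, adjusted p = 0.000102) and rose 1.61-fold from P21 to the adult (0.69 ± 0.17, adjusted p = 0.0059). The last rise was 0.45 with the length trend removed (adjusted p = 0.0446) and was not called without the 4 libraries low in Eif2s3y, where it was 0.70 (adjusted p = 0.108, range over 28 alternatives 0.000413 to 0.108). Adults were 1.68-fold above P3 (log2 difference 0.75 ± 0.17, limma adjusted p = 0.0017).

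**Figure D3:**
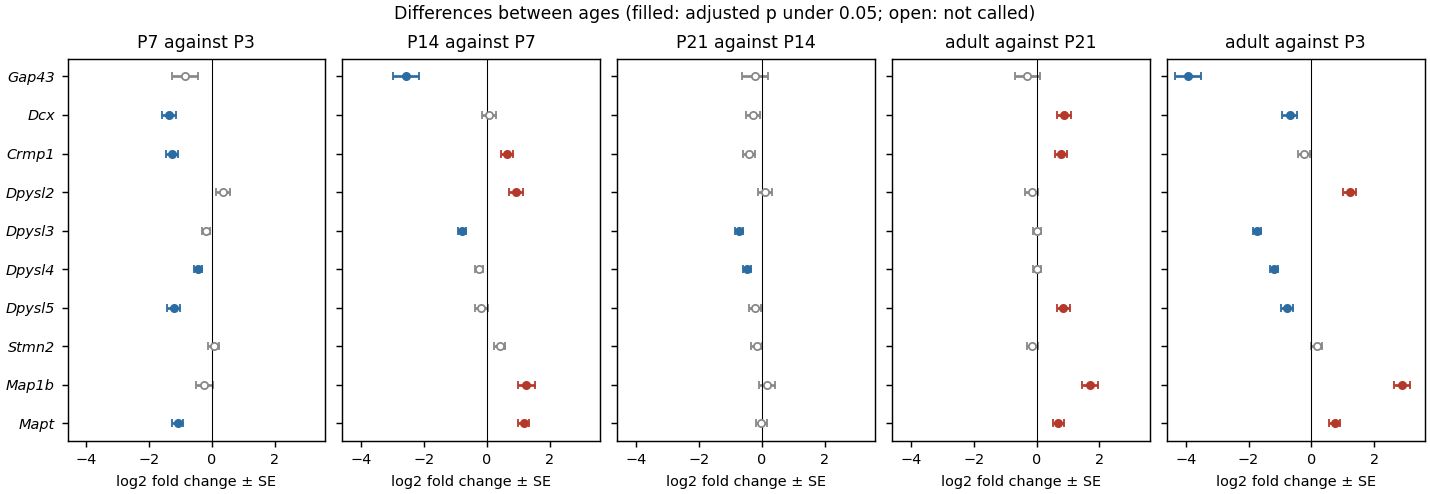
Log2 differences with standard errors (limma) of the 10 genes for each step between neighbouring ages and for adult against P3. Filled points passed an adjusted p under 0.05 (blue lower, red higher at the later age), 5 of them lower at P7 against P3 and 5 higher at adult against P21.

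By step, the 10 genes moved as follows. From P3 to P7, 5 fell (Dcx, Crmp1, Dpysl4, Dpysl5 and Mapt) and none rose, where 28.1% of all genes tested were called, 12.8% lower and 15.4% higher. For 8 of the 10, lower for 7 and higher for Dpysl2, the libraries of P3 and P7 did not overlap, which held for 54.2% of all genes. The median log2 difference of the 10 genes was -0.65, and that of all genes -0.02. From P7 to P14, 4 rose (Crmp1, Dpysl2, Map1b and Mapt) and 2 fell (Gap43 and Dpysl3), where 48.1% of all genes were called, 24.3% higher and 23.8% lower. For 7 of the 10 the libraries did not overlap, against 61.4% of all genes. The medians were 0.24 for the 10 genes and -0.02 for all. From P14 to P21, 2 fell (Dpysl3 and Dpysl4) and none rose, with 9.29% of all genes called, 3.29% higher and 6% lower. The libraries did not overlap for 3 of the 10 (also Crmp1), against 24.4% of all genes. The medians were -0.22 for the 10 genes and 0.00 for all. From P21 to the adult, 5 rose (Dcx, Crmp1, Dpysl5, Map1b and Mapt) and none fell, where 49.4% of all genes were called, 25.4% higher and 24.1% lower. The libraries did not overlap for the same 5 genes, against 56.1% of all genes, and the medians were 0.35 for the 10 genes and 0.0 for all. The count of 5 called genes was the same without P21 replicate 2. Without the 4 libraries low in Eif2s3y, only Map1b of the 5 was called. With the length trend removed, 4 rose and 1 fell (Dpysl3, -0.26 on the log2 scale, limma adjusted p = 0.0374).

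**Figure D4:**
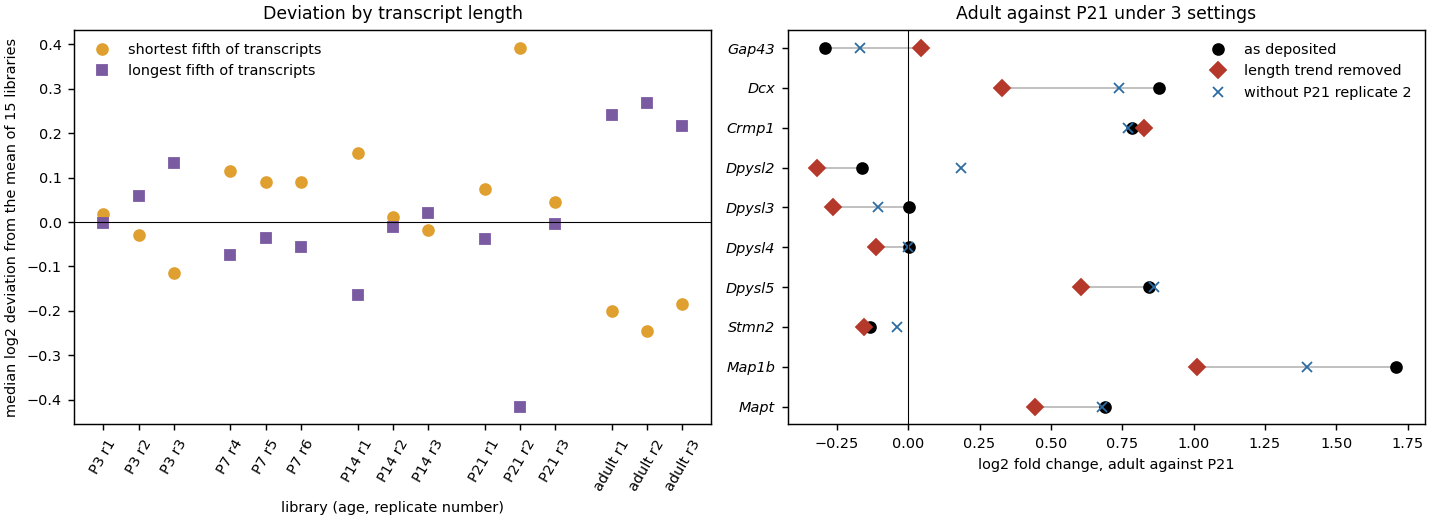
Left, median log2 deviation from the gene mean in each library for the genes with the shortest transcripts (circles) and the longest (squares); right, log2 difference of adult against P21 for the 10 genes as deposited, with the length trend removed and without P21 replicate 2. P21 replicate 2 lies at 0.39 for short and -0.42 for long transcripts, the adults lie the other way, and Map1b goes from 1.71 to 1.01 when the trend is removed.

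Over the whole span, adults were higher than P3 for Dpysl2, Map1b and Mapt and lower for Gap43, Dcx, Dpysl3, Dpysl4 and Dpysl5. These 8 called genes of 10 stand against 68.7% of all genes tested that were called, 34.4% higher and 34.3% lower, a share near that of the table as a whole. The libraries did not overlap for the same 8 genes, against 76.4% of all genes. The medians were -0.47 for the 10 genes and -0.01 for all genes.

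**Figure D5:**
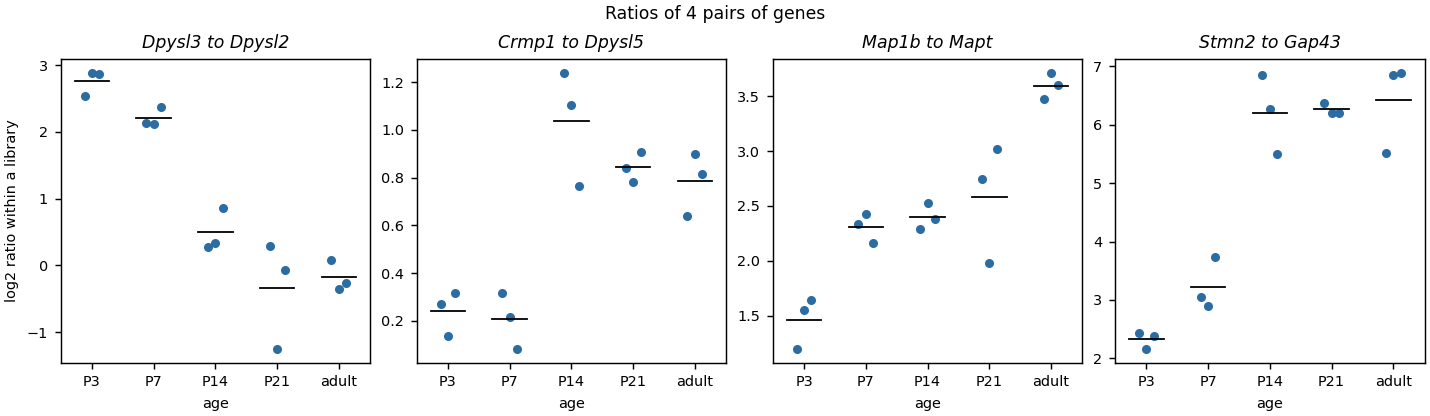
Log2 ratio of 2 genes within each library (1 point per library, horizontal line at the mean) against age, for Dpysl3 to Dpysl2, Crmp1 to Dpysl5, Map1b to Mapt and Stmn2 to Gap43. All but Map1b to Mapt are separated between the 6 libraries of P3 and P7 and the 6 of P21 and adult.

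Ratios of 2 genes within a library do not depend on how the library was scaled. For 4 pairs they were compared between the 6 libraries of P3 and P7 and the 6 of P21 and adult, with an exact two-sided permutation test adjusted over the 4, whose smallest possible p is 0.00216. The log2 ratio of Dpysl3 to Dpysl2 went from 2.49 ± 0.34 (SD, n = 6) to -0.26 ± 0.54 (exact permutation p = 0.00216, adjusted 0.00289), and every early library was above every late one. That of Stmn2 to Gap43 rose from 2.78 ± 0.58 to 6.34 ± 0.50, and that of Crmp1 to Dpysl5 from 0.22 ± 0.10 to 0.81 ± 0.10, both without overlap (exact permutation p = 0.00216, adjusted 0.00289, for each). The Map1b to Mapt ratio rose from 1.89 ± 0.49 to 3.09 ± 0.66 (exact permutation p = 0.0108, adjusted 0.0108), with overlap from P21 replicate 2, whose ratio was 1.98. Each pooled group holds 2 ages, so its SD mixes differences between ages with the spread between mice. For Map1b to Mapt the ages inside a group differed. The ratio ran from 1.20 to 1.64 at P3, while the early group reached 2.43. In adults it ran from 3.47 to 3.71, while the late group began at 1.98.

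Levels of different genes can be set side by side only per length, as normalized counts per kilobase of exon. At P3 the order was Dpysl3 (2875), Stmn2 (1619), Gap43 (1172), Map1b (834), Mapt (633), Dpysl2 (619), Crmp1 (330), Dpysl5 (263), Dpysl4 (171) and Dcx (134.5). Dpysl3 stood clear of the next gene, while the ranges of Stmn2 and Gap43, of Gap43 and Map1b, and of Map1b, Mapt and Dpysl2 overlapped, as did those of each next pair from Crmp1 to Dcx. In adults Map1b led with 5942, followed by Stmn2 (1790), Dpysl2 (1437), Mapt (1037), Dpysl3 (871), Crmp1 (271), Dpysl5 (152), Gap43 (89.2), Dcx (81.4) and Dpysl4 (73.9). The adult ranges of Mapt and Dpysl3 overlapped, as did those of Dpysl5 and Gap43, Gap43 and Dcx, and Dcx and Dpysl4. Those of the other neighbours did not. Both orders hold for the union of exons as the length. With the longest transcript, Crmp1 had a larger share of the CRMP count than Dpysl2 at P3 (13.8% against 11.4%). Mapt has 7531 bases of exon and a longest transcript of 5253, while Dpysl2 has 4520 for both. The adult order of Mapt and Dpysl2 therefore rests on the length used.

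Other genes of growth cones and axonal microtubules were described from lists chosen with earlier results known, by counts and medians. The list of 26 microtubule-binding proteins and stathmins had 14 genes higher and 2 lower at P14 than at P7, 16 higher and 2 lower in adults than at P21, and 19 higher and 2 lower in adults than at P3 (median log2 difference 0.90). Over all genes tested, 24.3% were called higher and 23.8% lower at P14 against P7, 25.4% and 24.1% in adults against P21, and 34.4% and 34.3% in adults against P3. The counts of this and the other lists were not recomputed with the length trend removed. In adults against P21, the log2 difference of Clasp1 ran from 0.40 to 1.17 over 28 alternatives and was always called. That of Dclk2 ran from 0.10 to 0.64 and lost its call in 2, while that of Mapre2 ran from 0.73 to 0.96, always called. Mapre2, a protein of growing microtubule ends, was 5.20-fold higher in adults than at P3 (limma adjusted p = 1.12e-10), and Map7d2, a microtubule-binding protein that recruits kinesin, 8.53-fold higher (adjusted p = 2.4e-09). Mapre1 (EB1), which marks growing ends too, went the other way (1.94-fold lower, adjusted p = 2.21e-08), as did Dclk1, a kinase related to doublecortin (3.05-fold lower, adjusted p = 4.19e-06). Map1a, the relative of Map1b known from mature neurons, was named after its values were seen. Per kilobase of exon it went from 672 at P3 to 11480 in adults, a log2 difference of 4.17 ± 0.29 (limma adjusted p = 2.74e-08).

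Among 11 growth cone membrane and adhesion proteins, adults had 5 genes higher and 4 lower than P3, beside 68.7% of all genes called in that comparison. Gap43's fellow membrane-attached protein kinase C substrates were among the lower ones. Marcks was 11.1-fold lower (log2 difference -3.47 ± 0.17, limma adjusted p = 1.32e-09), Marcksl1 5.63-fold lower and Basp1 4.76-fold lower. Chl1, an adhesion molecule of the L1 family, was 4.49-fold lower, while the adhesion molecule Cntn2 (TAG-1) was higher by 3.46 ± 0.23 on the log2 scale (limma adjusted p = 1.77e-08). L1cam, like Mapt and Crmp1, fell from P3 to P7 (log2 difference -1.09 ± 0.17, limma adjusted p = 0.00066). It rose from P7 to P14 (1.31 ± 0.17) and from P21 to the adult (1.38 ± 0.17), as those 2 genes did. At P7 this list had 5 genes lower and 1 higher than at P3, beside 12.8% and 15.4% of all genes.

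Of 19 actin regulators of the growth cone, 9 were higher and 7 lower in adults than at P3, where 34.4% of all genes were called higher and 34.3% lower. The actin bundler Fscn1 was 4.19-fold lower (limma adjusted p = 2.63e-09) and the actin monomer binder Tmsb10 7.18-fold lower (adjusted p = 2.72e-08), and Cyfip2, a subunit of the WAVE complex that regulates actin, was higher by 2.28 ± 0.15 on the log2 scale. Of 20 semaphorin 3A receptors, partners and kinases of CRMP proteins and tau, 9 were higher and 6 lower, 75.0% in all, which is near the 68.7% of all genes. Among the lower were the ligand Sema3a itself (log2 difference -1.05 ± 0.12, limma adjusted p = 2.59e-06) and its receptor family genes Nrp1 (-0.61 ± 0.11) and Nrp2 (-1.69 ± 0.25). Among the higher were Cdk5r1 (1.55 ± 0.13) and Cdk5r2 (1.88 ± 0.18), the activators of the CRMP and tau kinase Cdk5, the tau kinase Gsk3a (0.83 ± 0.06), and the kinesin light chain Klc1 (2.11 ± 0.09), a partner of CRMP2. Of 10 transcription factors of axon growth, 3 were higher and 3 lower, beside 68.7% of all genes called. Sox11 (-1.01 ± 0.15), Sox4 (-2.68 ± 0.28) and Klf4 (-1.99 ± 0.14) were lower. Jun (1.07 ± 0.14) and Klf9 (1.30 ± 0.16) were among the higher.

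Markers of the cells in the dissection moved over the same ages. No listed marker was at 0 in any library. The summed normalized counts of 15 general neuron markers ran from 61947 to 97844 at P3, 86186 to 97343 at P7, 337153 to 344508 at P14, 319168 to 382143 at P21 and 442784 to 481737 in adults. So the falls of Dcx, Crmp1, Dpysl5 and Mapt at P7 came with overlapping neuron marker sums at P3 and P7, where 5 of the 15 markers were called higher and 1 lower, beside 15.4% and 12.8% of all genes. The rises of Map1b, Mapt and Crmp1 at P14 came with 12 of the 15 called higher, beside 24.3% of all genes, and Gap43 fell at that step. The rises of Dcx, Crmp1, Dpysl5, Map1b and Mapt from P21 to the adult came with 7 of the 15 called higher and none lower (median log2 difference 0.43), beside 25.4% of all genes called higher, and with neuron marker sums that did not overlap between those ages. The part of neuron content in these differences was not tested.

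The 7 fibroblast markers summed to 570017 to 858090 at P3, 416570 to 532953 at P7, 275533 to 351105 at P14, 114747 to 153047 at P21 and 60428 to 68471 in adults, with no overlap between neighbouring ages. Dpysl3 had no overlap either from P3 to P21, but its P21 and adult libraries overlapped (log2 difference 0.00 ± 0.12, limma adjusted p = 0.984). At that last step 6 of the 7 fibroblast markers were called lower and none higher, beside 24.1% of all genes called lower. With the length trend removed, Dpysl3 was lower by -0.26 on the log2 scale at that step (limma adjusted p = 0.0374). The fibroblast list was split at P7 against P3, with Dcn and Lum called higher and Col1a1 and Col1a2 lower, 2 each of the 7. Of all genes, 15.4% were called higher and 12.8% lower at that step. Sums of 8 cycling cell markers ran from 13521 to 15430.3 at P3 and from 1463 to 1541 in adults. Oligodendrocyte markers (12 genes) ran from 54803.5 to 58525 at P3, from 151259 to 444720 at P14 and from 138580 to 168560 in adults, and peripheral myelin markers (10 genes) from 197091 to 311000 at P3, from 927962 to 1247303 at P14 and from 390957 to 445777 in adults. The 8 markers of immature or nonmyelinating Schwann cells, which can carry Gap43 too, summed to 15194 to 19781 at P3 and 28512 to 30281 in adults. Of these 8 markers, 4 were called higher in adults than at P3 and 2 lower (Gfra3 and Sox2). Of all genes, 34.4% were called higher and 34.3% lower in that comparison. The part of these cells in the courses of Dpysl3, Dpysl2 and Gap43 was not tested.

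For each of the 10 genes, the genes most like it were taken as those with the highest Pearson correlation of log2 values over the 15 libraries, among 10926 other well-expressed genes, as a description. Gap43 was most like Grm4, Tubb2b (both 0.98) and Hs6st2 (0.978). Dpysl3 was most like Bmp1, Adamts12 and Mfap3 (0.992 each). Dcx and Dpysl5 shared their closest gene, Lsm11 (0.961 and 0.960). Crmp1 was most like Astn1 and Cacna1b (0.905 each) and Cdh4 (0.90), and Mapt most like Jph4 (0.973), Nova2 (0.969) and Fbxo41 (0.962). Map1b was most like Fry (0.998), Wdr7 (0.994) and Apba2 (0.993), and Dpysl2 most like Zfp706 (0.988), Cyc1 (0.982) and Ndfip1 (0.98). Dpysl4 had Nek6 (0.963), Zfp282 (0.960) and Cdv3 (0.958), and Stmn2, with the lowest such values of the 10, had Praf2 (0.83), Cnrip1 (0.819) and Atxn10 (0.789).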

How the data were processed

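Auditory nerve of both cochleae of a mouse gave 1 TruSeq library per mouse, 3 per age, per the labels' protocols. Partek, TopHat2, DESeq2 and build mm10 are named in the submitters' processing notes. Annotation, counting rules and use of strand are not given in the sources used here, so reads of overlapping or antisense genes cannot be told apart. The deposited signal per library is a read count divided by a size factor, since 99.94% of the values above 0 came out as whole reads (tolerance 0.1) when divided by a fixed step in each library. The authors' deposited p-value, FDR and signed fold change score columns, named per the file headers, were not used for any result.

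Log2(value + 1) was fitted with limma 3.58.1 (trend and robust, R 4.3.3) for 16723 genes with at least 10 in at least 3 libraries, with all 15 libraries in 1 fit (10 residual degrees of freedom). Differences are age means on that scale, and folds are 2 to that power. Tests were two-sided, and a gene was called when its Benjamini-Hochberg value over all genes was under 0.05. The limma p-values rest on the spread between mice of an age, while those of the ratios also hold differences between the pooled ages. Libraries of an age differed by more than sampling noise. Same-numbered libraries come from different mice, and 5 of 18 same-number pairs correlated above 0.1 (range -0.229 to 0.319), so the numbers were not taken as pairs. The scripts were tested on simulated data.

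The alternatives were quantile and TMM scaling, other filters and pseudocounts (0.1 and 10), a fit to the 2 ages compared, counts recovered as whole reads with DESeq2 1.42.0, edgeR 4.0.16 or limma-voom, leaving out each library or the 4 low in Eif2s3y, and the replicate number as a block. Removal of a length trend was added after seeing the data. The 10 genes and all lists were chosen with earlier results of these data known. The text names the 10 genes, up to 4 genes per list and comparison with the smallest adjusted p, called genes going against their list, and the 3 genes most correlated with each of the 10, plus Map1a, chosen after its values were seen. Lengths come from GENCODE M21.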

Additional observations from a re-analysis of the deposited data

How the results depend on the processing

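Of the differences of single genes and the counts of called genes, each was recomputed under 26 to 28 alternatives. Between P21 and P14, 1553 genes were called as reported, but there were 137 with only both ages in the fit, 2519 with DESeq2, 754 without the 4 libraries low in Eif2s3y, and 631 (without P14 replicate 3) to 1969 (without P21 replicate 2) when single libraries were left out. Without P14 replicate 2 it was 979. Between adult and P21, 8266 genes were called as reported, 5211 with only both ages in the fit and 3987 without the 4 libraries. The count between P7 and P3, 4703 as reported, ran from 3080 (without P7 replicate 5) to 6349 (without P21 replicate 2) with single libraries left out, and was 3124 without P3 replicate 3. The replicate number as a block could be fitted for P3, P14, P21 and adult, which share numbers, and gave 645 genes between P21 and P14, 7147 between adult and P21 and 10927 between adult and P3. Of the 10 genes it ended the call of Dpysl4 between P14 and P21 (limma adjusted p = 0.0524) and no other.

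With the length trend removed, Dpysl3 in adults against P21 was -0.26, where the reported difference was 0.00 and not called. Comparing P3 with adult alone, the log2 ratios differed by -2.94 (Dpysl3 to Dpysl2), 0.54 (Crmp1 to Dpysl5), 2.13 (Map1b to Mapt) and 4.10 (Stmn2 to Gap43), and an exact permutation test of 3 against 3 libraries cannot go below p = 0.1. The 4 ratios kept their direction under every alternative run. CRMP shares moved with the length used. With the longest transcript, Crmp1 had 13.8% at P3 and 18.2% in adults, Dpysl2 11.4% and 42.0%, Dpysl4 4.45% and 3.07%, and Dpysl3 63.6% at P3. With no length correction, Crmp1 had 12.1% in adults, Dpysl2 10.4% at P3 and 41.4% in adults, Dpysl3 36.6% in adults, Dpysl4 3.77% and 2.81%, and Dpysl5 7.08% in adults. Dpysl3 led at P3 and Dpysl2 in adults with each length. The cause of these shifts was not tested. At this depth the spread between the 3 mice of an age, which exceeded counting noise, limits the precision.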
